A study of Mus musculus with 12 samples.

Results

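The 10 genes described here encode a signaling system of microglia and other myeloid cells. They were found by symbol among the 52459 genes listed in each count table. *Trem2*, *Fcrls*, *Fcgr1*, *Fcgr3*, *Fcgr4* and *Fcgr2b* encode receptors, *Tyrobp* and *Fcer1g* encode adaptors, *Syk* encodes a kinase and *Plcg2* a phospholipase. RNA-seq libraries were made from the cerebellum (Cb) and the forebrain/midbrain (F/M) of male mice aged 4 months, a model of classical late-infantile neuronal ceroid lipofuscinosis. *Tpp1*-/- mice (T) are homozygous for a disruption of *Tpp1* by gene targeting, and the controls (N) are their wild-type male siblings from a line kept by crossing heterozygotes. The 4 groups, Cb-N, Cb-T, F/M-N and F/M-T, hold 3 libraries each, and total counts ranged from 21428379 to 24458189 per library. The disruption is carried in the germ line, so it is shared by every cell type of the T mice. Per the study's methods, RNA of both areas came from the mice of each genotype. Which Cb library goes with which F/M library is not given in the sources used here, and the libraries were treated as independent.

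Receptors of this system mostly lack a signaling domain of their own and pair in the membrane with a short adaptor that carries an immunoreceptor tyrosine-based activation motif (ITAM). Trem2, a receptor for lipids and lipoproteins, pairs with Tyrobp, and the activating Fc gamma receptors, which bind the constant part of IgG, pair with Fcer1g. When ligand is bound, Src-family kinases phosphorylate the ITAM, Syk docks on it, and Syk activates phospholipase C gamma 2 and other effectors that drive phagocytosis and cytokine release. Fcgr2b is the inhibitory Fc gamma receptor and carries an inhibitory motif (ITIM) that recruits phosphatases, and Fcrls is an Fc receptor-like protein known as a marker of microglia.

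Levels are given in CPM (counts scaled to a fixed library total) after scaling of the 12 libraries by the trimmed mean of M-values (TMM). A difference was called where edgeR's quasi-likelihood test gave a false discovery rate (FDR) under 0.1 over all genes tested and the fold change reached 1.5. *Tpp1* itself was measured first as a check of the labels. It stood at 112, 114 and 112 CPM in the Cb-N libraries, at 28.0, 31.1 and 30.1 in Cb-T, at 94.4, 88.7 and 87.8 in F/M-N and at 23.9, 21.8 and 23.3 in F/M-T. Every T library lay below every N library of its area, as labelled. The log2 fold change was -1.91 ± 0.04 (SE) in Cb and -1.94 ± 0.05 in F/M.

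The libraries also differed in markers of neighboring brain tissue, which move with genotype. Hox genes, which mark hindbrain and spinal cord, summed to 0.533, 0.596 and 0.464 CPM in the Cb-N libraries and to 15.1, 14.4 and 14.3 in Cb-T, and to at most 0.175 in any F/M library. The count filter asked for 0.441 CPM in at least 3 libraries in Cb. Of 18 Hox genes 10 passed it, all through the Cb-T libraries alone, so their direction was set by the filter and no count of calls is given. *Hoxb5*, the most abundant of them in Cb-T, had no count in Cb-N, against a mean of 2.54 CPM in Cb-T, and 9 of the 18 had no count in any Cb-N library. Genes of brainstem nuclei, led by *Slc6a5* in Cb and *Shox2* in F/M-N, summed to 53.8, 52.0 and 50.3 CPM in the Cb-N libraries and 86.0, 82.3 and 83.0 in Cb-T. *Slc6a5* made up most of that sum in Cb-N and was not called, at 48.7 CPM in Cb-N and 47.5 in Cb-T. The sum therefore understates the rise of the other genes. *Shox2* and *Dbh*, the most abundant of these in Cb-T, went from 0.21 to 10.3 and from 0.654 to 8 CPM. In Cb 10 of 11 tested genes were called higher in T, beside 8.54% of all genes. Of these 10, 7 passed the filter through Cb-T alone. In F/M the list summed to 42.6, 43.4 and 39.8 CPM in N and 53.0, 52.4 and 53.6 in T. There 3 of 10 were called higher, beside 2.63% of all genes, and of the 3 *Slc6a4* passed the filter through F/M-T alone. *Shox2* was lower in T there, at 17.0 and 11.5 CPM, and under the fold limit (log2 -0.53, edgeR FDR = 0.00012). Olfactory bulb genes, led by *Cdhr1* in F/M-N, summed to 58.4, 58.2 and 57.4 CPM in F/M-N and 31.3, 29.5 and 30.2 in F/M-T. EdgeR called 7 of 8 lower, beside 0.858% of all genes, and DESeq2 called 6. Of these 7, 4 passed the filter through F/M-N alone, so their direction was set by it. In Cb no sum of this list is given, because *Eomes*, which unipolar brush cells of the cerebellum also express, made up most of it in N. *Eomes* fell from 53.2 to 11.4 CPM in Cb, and *Cdhr1*, which passed the filter through Cb-T, was called higher (0.427 and 2.35 CPM). Since the Hox signal was present in each of the 3 Cb-T libraries, no comparison that uses Cb-T could be made without it. The part of these markers in the results below was not tested.

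The order of the members' levels was compared after division by exon length in kilobases (kb). This length joins the exons of all annotated transcripts of a gene, 4.95 kb for *Trem2* and 0.667 kb for *Tyrobp*. Where the transcripts in use are shorter than that, the level per kb is too low. Transcripts in use were not determined, so the order holds for this length only. In the controls *Tyrobp* held the highest level of the 10 genes per kb, 5.91 ± 0.556 CPM per kb (SD, n = 3) in Cb-N and 14.6 ± 2.19 in F/M-N. *Fcrls*, *Fcer1g* and *Fcgr3* followed in F/M-N at 7.88, 5.70 and 5.63 CPM per kb, and in Cb-N at 1.61, 2.19 and 2.08. *Syk* and *Fcgr4* were the lowest in both areas, at 0.188 and 0.073 CPM per kb in Cb-N and 0.483 and 0.093 in F/M-N. Adaptor RNA thus exceeded kinase RNA per unit of this length in every group, and in Cb-T the gap was widest, with 44.7 CPM per kb for *Tyrobp* and 0.343 for *Syk*.

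All 10 members rose in the T cerebellum. Among all 16382 genes tested in Cb, 8.54% were called higher in T. The median log2 fold change of the 10 was 2.44, beside 0.01 over all genes tested. In F/M, 8 of the 10 rose, beside 2.63% of 16665 genes tested, and the members' median was 1.02 beside 0.01 over all genes. Receptors and adaptors made up the 8, while *Syk* and *Plcg2* were not called there. *Fcgr4* is among the 10 and the 8 and in both medians. In each area it passed the count filter through its T libraries alone, so its direction was set by the filter. In bulk tissue, a larger number of cells of a type cannot be told apart from more RNA per cell.

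*Trem2* was measured at 3.33, 3.44 and 3.43 CPM in the Cb-N libraries and at 21.1, 21.9 and 21.6 in Cb-T. In F/M it was measured at 9.16, 10.8 and 11.7 CPM in N and at 22.7, 20.3 and 24.5 in T. The T libraries of both areas thus reached the same range from unequal starting points, and no T library overlapped the N libraries of its area. The rise was 6.38-fold in Cb (log2 fold change 2.67 ± 0.09, edgeR FDR = 4.7e-27) and 2.18-fold in F/M (1.12 ± 0.09, edgeR FDR = 1.2e-08).

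*Fcrls* showed the largest rise of the 10 in Cb when all libraries were used, and *Fcgr4*, at 3.73, passed it without Cb-N replicate 3. Its levels were 3.68, 3.76 and 3.81 CPM in Cb-N against 35.6, 35.4 and 36.4 in Cb-T, and 19.5, 16.4 and 19.2 in F/M-N against 35.5, 37.4 and 35.6 in F/M-T. The T libraries of both areas overlapped, while F/M-N lay far above Cb-N. The change was 9.61-fold in Cb (log2 3.27 ± 0.08, edgeR FDR = 8.8e-33) and 2.01-fold in F/M (1.01 ± 0.06, edgeR FDR = 3.5e-10).

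Among the activating Fc gamma receptors, *Fcgr3* encodes the low-affinity receptor for immune complexes. It was found at 2.93, 4.08 and 3.81 CPM in Cb-N and at 13.5, 12.6 and 10.9 in Cb-T, and at 10.4, 8.60 and 10.3 in F/M-N and 16.7, 14.3 and 16.7 in F/M-T. The groups of each area were separate, and Cb-T stayed below F/M-T. Log2 fold changes were 1.79 ± 0.11 in Cb and 0.73 ± 0.09 in F/M (edgeR FDR = 1.6e-17 and 5.7e-06).

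*Fcgr1* encodes the high-affinity IgG receptor. Its CPM was 3.55, 2.71 and 3.48 in Cb-N and 5.19, 3.83 and 5.80 in Cb-T, and in F/M 2.65, 2.88 and 3.30 in N and 5.48, 5.14 and 6.30 in T. The controls of both areas overlapped for this receptor, and the lowest Cb-T library came close to the highest Cb-N library. The log2 fold change was 0.61 ± 0.15 in Cb (edgeR FDR = 0.00051) and 0.97 ± 0.14 in F/M (edgeR FDR = 3.1e-05). In Cb the value lay just past the fold limit, and it was 0.49, 0.58 and 0.48 without Cb-N replicate 2, Cb-T replicate 1 and Cb-T replicate 3, which is under that limit. Over the alternatives its FDR, from edgeR or DESeq2, ranged from 4.1e-05 to 0.014.

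*Fcgr4*, an activating receptor for IgG2 subclasses, was the rarest member. It had 1, 1 and 4 counts in the Cb-N libraries and 13, 18 and 17 in Cb-T, and 3, 3 and 2 counts in F/M-N and 16, 14 and 19 in F/M-T. All 6 T libraries exceeded all 6 N libraries, although the N values rest on a handful of reads. In each area it passed the count filter through its T libraries alone, and without a filter it was called as well. The log2 fold change in Cb was 2.80, and it was 3.73 without Cb-N replicate 3, the library with 4 counts. The ratio of summed counts per depth, T to N, was 7.25 in Cb with an exact 95% interval of 3.10 to 20.7, and 6 in F/M with an interval of 2.82 to 14.7. These intervals cover counting error only. With edgeR the call was made in both areas (FDR = 1.5e-05 and 0.00032), and DESeq2 gave no adjusted p in F/M.

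The inhibitory receptor *Fcgr2b* rose too. It measured 1.91, 1.65 and 1.86 CPM in Cb-N and 11.1, 9.47 and 10.5 in Cb-T, and 3.26, 3.47 and 3.22 in F/M-N and 9.86, 9.20 and 10.1 in F/M-T. Neither area had an overlap of genotypes, and the T libraries of Cb and F/M overlapped each other. The log2 fold change was 2.53 ± 0.13 in Cb (edgeR FDR = 1.1e-20) and 1.58 ± 0.11 in F/M (edgeR FDR = 1.1e-09).

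*Tyrobp*, the adaptor of Trem2, stood at 3.68, 3.76 and 4.36 CPM in Cb-N and 28.4, 31.0 and 30.0 in Cb-T. In F/M-N it stood at 8.12, 10.2 and 10.9 CPM and in F/M-T at 26.6, 22.7 and 25.1. Each Cb-T library held more *Tyrobp* than any F/M-T library, although each Cb-N library held less than any F/M-N library. The change was 7.64-fold in Cb and 2.60-fold in F/M (log2 2.93 ± 0.08 and 1.38 ± 0.09, edgeR FDR = 8.1e-30 and 6.6e-10).

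*Fcer1g*, the adaptor of the activating Fc receptors, was lower than *Tyrobp* per kb in every group. Its libraries held 2.13, 1.79 and 1.81 CPM in Cb-N, 9.75, 9.95 and 9.49 in Cb-T, 5.03, 4.91 and 5 in F/M-N and 9.24, 10.7 and 9.77 in F/M-T. The T libraries of both areas mixed in a narrow range near 10 CPM. The adaptor rose 5.12-fold in Cb (log2 2.36 ± 0.13, edgeR FDR = 5.9e-20) and 2.04-fold in F/M (1.03 ± 0.10, edgeR FDR = 2.2e-07).

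**Figure D1:**
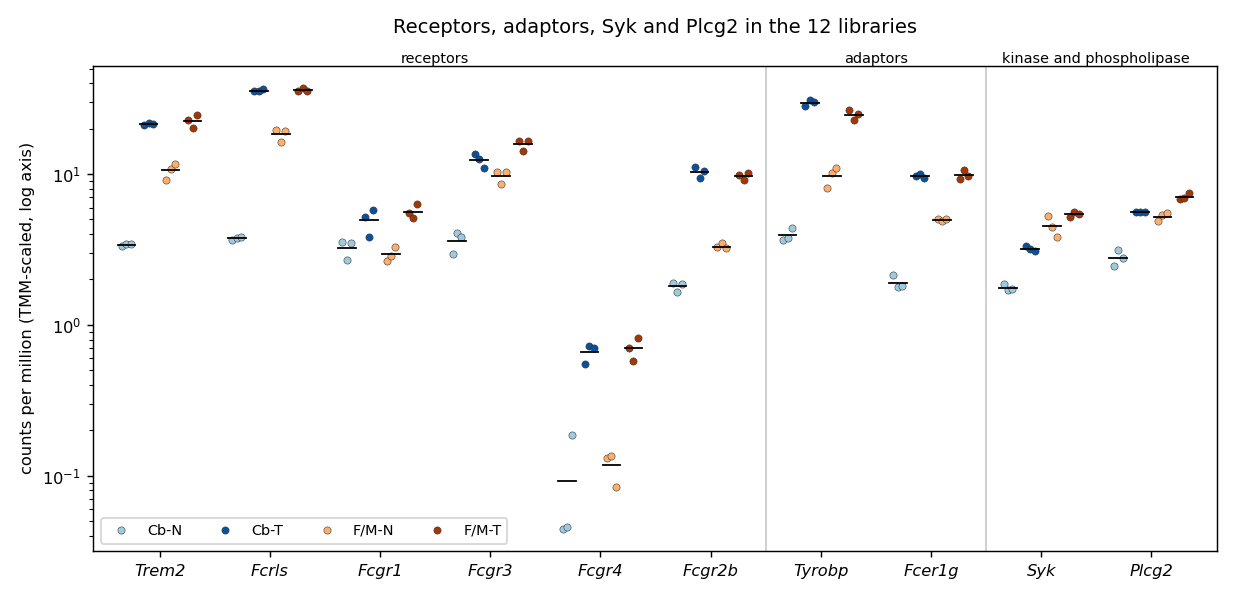
TMM-scaled CPM of the 10 members in each library, on a log axis. Points are libraries (3 per group) and bars are group means. For *Trem2*, *Fcrls* and *Fcer1g* the Cb-T and F/M-T libraries overlap, while Cb-N lies below F/M-N.

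*Syk*, the kinase that docks on phosphorylated ITAMs, was measured at 1.86, 1.70 and 1.72 CPM in Cb-N, 3.33, 3.18 and 3.11 in Cb-T, 5.30, 4.46 and 3.81 in F/M-N and 5.21, 5.63 and 5.40 in F/M-T. In Cb the genotypes were separate, yet every Cb-T library stayed under every F/M-N library, and in F/M the genotypes overlapped. *Syk* rose 1.84-fold in Cb (log2 0.88 ± 0.17, edgeR FDR = 2.6e-05), whereas the log2 fold change in F/M, 0.29 ± 0.13, was not called (edgeR FDR = 0.11). The 95% interval of the F/M value ran from 0.05 to 0.54.

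*Plcg2*, the substrate of this kinase, stood at 2.44, 3.12 and 2.78 CPM in Cb-N and 5.61, 5.60 and 5.60 in Cb-T, and at 4.86, 5.32 and 5.51 in F/M-N and 6.79, 6.92 and 7.50 in F/M-T. Genotypes were separate in both areas. The rise in Cb was 2.03-fold (log2 1.02 ± 0.13, edgeR FDR = 1.5e-08). In F/M the log2 fold change of 0.47 ± 0.10 passed the FDR (0.0030 with edgeR) and not the fold limit.

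**Figure D2:**
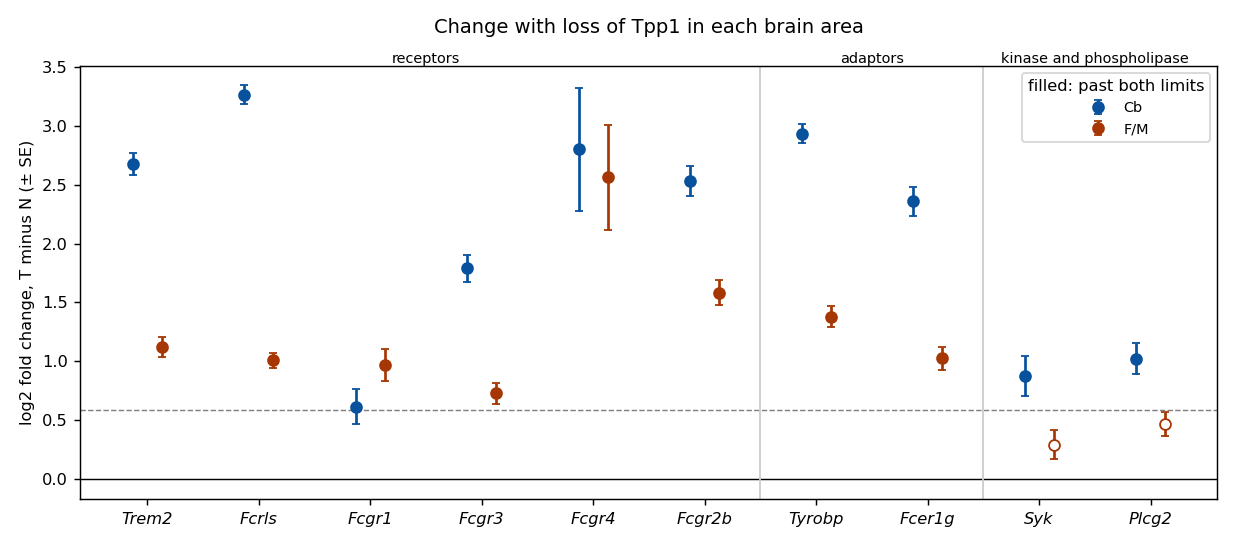
Log2 fold change of T against N with its SE from edgeR for each member in Cb (blue) and F/M (brown), 3 libraries per group. Filled points passed both limits and the dashed line marks the fold limit of 1.5. *Syk* and *Plcg2* lie below 1.1 in Cb and below 0.5 in F/M.

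Whether loss of *Tpp1* changed a member by a different amount in Cb and F/M was asked with an interaction term of area and genotype. *Trem2*, *Fcrls*, *Fcgr3*, *Fcgr2b*, *Tyrobp*, *Fcer1g* and *Syk*, 7 of the 10, were called with a larger rise in Cb, beside 6.41% of the 17482 genes tested. *Fcrls* had the largest difference, 2.28 ± 0.11 on the log2 scale (edgeR FDR = 1.2e-16), followed by *Tyrobp* at 1.58 ± 0.14 and *Trem2* at 1.57 ± 0.14. *Fcgr1* had a difference of -0.33 ± 0.22 and was not called (edgeR FDR = 0.30), and neither was *Fcgr4*, whose difference of 0.26 had an SE of 0.78. *Plcg2*, at 0.58 ± 0.16, met the FDR (0.0097 with edgeR) and fell short of the fold limit.

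The call of *Syk* in the interaction, at 0.60 ± 0.20 with an edgeR FDR of 0.032, was close to the limits. It was not called with DESeq2 or with RLE scaling, at 0.58 in each. Over the alternatives its FDR, from edgeR or DESeq2, ranged from 0.0098 to 0.11. Without F/M-N replicate 1, F/M-T replicate 1, Cb-N replicate 2, Cb-T replicate 1 and Cb-T replicate 3 the value was 0.47, 0.58, 0.57, 0.52 and 0.57 and was not called. That of *Plcg2* was called, at 0.63, 0.62 and 0.66, without F/M-N replicate 1, F/M-T replicate 3 and Cb-N replicate 2, and at 0.60 without a count filter.

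In the control mice themselves, 8 of the 10 members were lower in Cb than in F/M, beside 23.2% of all genes tested. *Fcrls* differed most, with a log2 difference of -2.29 ± 0.09 between Cb-N and F/M-N (edgeR FDR = 2.9e-20), and *Trem2*, *Fcgr3*, *Fcer1g*, *Syk* and *Tyrobp* ranged from -1.63 to -1.31. The exceptions were *Fcgr1*, with 0.14 ± 0.17, and *Fcgr4*, with -0.33 ± 0.74. Over the alternatives this value of *Fcgr4* ranged from -1.27 to -0.0087. In the T mice, *Syk* was the only member called between the areas, with a log2 difference of -0.76 ± 0.13 (edgeR FDR = 4.4e-06), beside 18.9% of all genes called lower in Cb. *Fcgr3* at -0.36, *Plcg2* at -0.33 and *Tyrobp* at 0.27 passed the FDR there and not the fold limit. For *Fcrls* the log2 difference between Cb-T and F/M-T was -0.02, with a 95% interval of -0.12 to 0.08, and for *Trem2* it was -0.06, with an interval of -0.20 to 0.07. These comparisons share libraries with those of genotype and are not independent of them.

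The order of the 4 group means was the same for *Trem2*, *Fcgr3*, *Fcgr4*, *Fcrls*, *Fcer1g* and *Plcg2*, with Cb-N lowest, then F/M-N, Cb-T and F/M-T. Of these, *Fcgr3* and *Plcg2* had no overlap between neighbors in the order, and in *Trem2*, *Fcrls* and *Fcer1g* the libraries of Cb-T and F/M-T overlapped. *Fcgr4* overlapped within each genotype. For *Tyrobp* and *Fcgr2b* the highest group was Cb-T. *Fcgr1* had F/M-N lowest, overlapping Cb-N, and *Syk* alone had F/M-N above Cb-T.

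The balance of receptors, adaptors and kinase was examined by ratios of CPM within each library. A ratio within a library does not depend on the scaling, and it compares RNA counts without regard to gene length. Of 22 ratios, 11 in each area, T lay above N without overlap in 9 and below N without overlap in 6. The ratios reuse the same genes and are not independent, and the share of separated ratios among other pairs of genes was not computed. Differences by genotype were common among all genes. The FDR limit alone was met by 9442 of 16382 genes in Cb and 4541 of 16665 in F/M. With 3 libraries against 3, the exact two-sided permutation test cannot give a p under 0.1, and the smallest adjusted p over the 22 was 0.147, so none passed.

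*Syk* to *Tyrobp* had the largest shift between members in Cb, and *Fcgr4* to *Fcer1g* in F/M. The ratio was 0.506, 0.451 and 0.394 in Cb-N and 0.118, 0.103 and 0.104 in Cb-T, and 0.652, 0.438 and 0.349 in F/M-N and 0.196, 0.248 and 0.215 in F/M-T. Kinase RNA per adaptor RNA was lower in every T library than in any N library of the same area. The mean log2 ratio fell by 2.06 in Cb and by 1.08 in F/M (exact permutation p = 0.1 in each). *Plcg2* to *Syk*, in contrast, overlapped between genotypes, with means of 1.59 ± 0.266 (SD) in Cb-N and 1.75 ± 0.0591 in Cb-T, and 1.18 ± 0.263 in F/M-N and 1.31 ± 0.0805 in F/M-T.

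*Fcgr1* to *Fcer1g* separated the areas. This ratio was 1.67, 1.51 and 1.92 in Cb-N against 0.532, 0.385 and 0.611 in Cb-T, and 0.526, 0.587 and 0.661 in F/M-N against 0.592, 0.479 and 0.645 in F/M-T. The controls of Cb stood apart from the other groups, whose libraries mixed. The log2 ratio of T to N was -1.76 in Cb (exact permutation p = 0.1) and -0.05 in F/M (exact permutation p = 0.7). For *Fcgr3* to *Fcer1g* the genotypes overlapped in both areas, with means of 1.92 and 1.27 in Cb-N and Cb-T and 1.96 and 1.62 in F/M-N and F/M-T. *Fcgr4* to *Fcer1g* was higher in T without overlap in F/M, with means of 0.0234 and 0.0711, and overlapped in Cb.

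*Trem2* to its adaptor *Tyrobp* was 0.904, 0.915 and 0.787 in Cb-N and 0.743, 0.705 and 0.721 in Cb-T, and 1.13, 1.06 and 1.07 in F/M-N and 0.853, 0.894 and 0.976 in F/M-T. Receptor and adaptor moved almost in step, with T slightly and fully below N in both areas. The log2 shift was -0.26 in each (exact permutation p = 0.1 in each). *Fcer1g* to *Tyrobp* also fell below N without overlap in Cb, from a mean of 0.490 to 0.327, and overlapped in F/M.

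The ratio of the inhibitory *Fcgr2b* to the activating *Fcgr3* was 0.652, 0.404 and 0.488 in Cb-N and 0.825, 0.751 and 0.962 in Cb-T, and 0.312, 0.403 and 0.313 in F/M-N and 0.589, 0.643 and 0.607 in F/M-T. In both areas each T library exceeded each N library. The log2 shifts were 0.74 in Cb and 0.85 in F/M (exact permutation p = 0.1 in each). *Fcrls* to *Fcgr3* shifted by 1.47 in Cb, from a mean of 1.06 to 2.92, and by 0.28 in F/M, from 1.88 to 2.29.

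**Figure D3:**
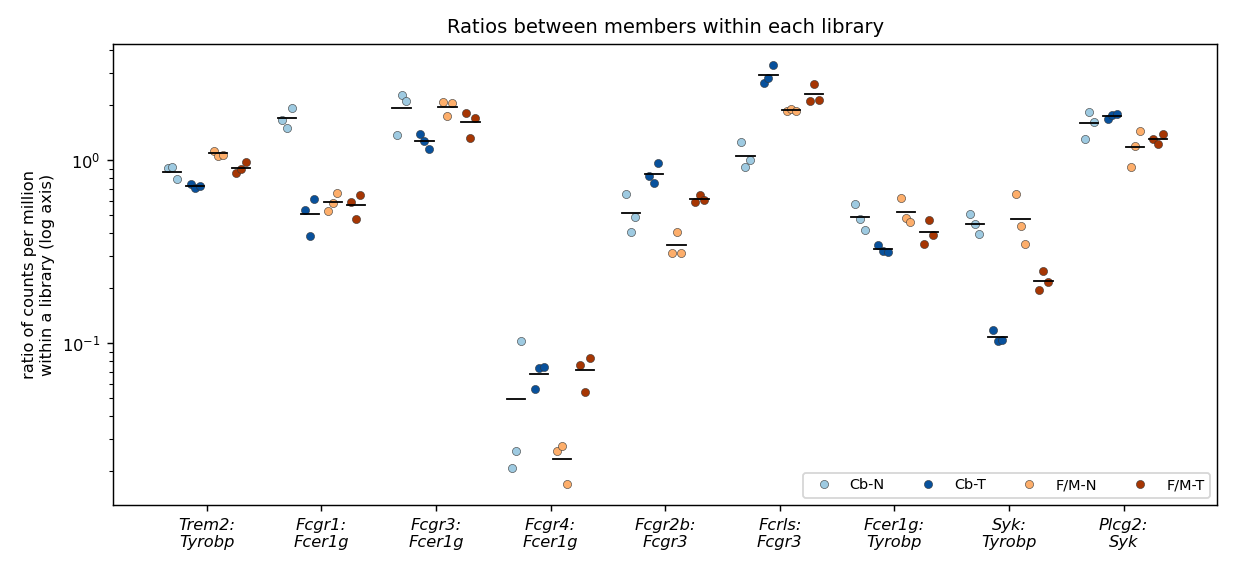
Ratio of TMM-scaled CPM between pairs of members within each library, on a log axis. Points are libraries (3 per group) and bars are group means. *Syk* to *Tyrobp* is lower in T in both areas, and *Fcgr1* to *Fcer1g* is near 1.7 in Cb-N and near 0.5 to 0.6 in the other groups.

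Of 14 markers of homeostatic microglia, 9 rose in Cb and 2 in F/M, beside 8.54% and 2.63% of all genes tested, with median log2 fold changes of 0.95 and 0.30. In the interaction of area and genotype 10 of the 14 were called with a positive difference, Cb minus F/M, beside 6.41% of all genes. The median of that difference was 0.68. *Aif1* and *Cx3cr1* rose by 1.90 and 1.52 on the log2 scale in Cb, whereas *P2ry12* and *Tmem119* were not called in either area, with 0.50 and 0.31 in Cb and -0.01 and -0.06 in F/M. In Cb both passed the FDR (2.5e-07 and 0.013 with edgeR) and missed the fold limit alone. These 4 genes were picked after their values were seen. The summed level was 952, 943 and 961 CPM in Cb-N and 1360, 1400 and 1390 in Cb-T, and 922, 909 and 924 in F/M-N and 1100, 1090 and 1100 in F/M-T. *Sparc*, which astrocytes and endothelial cells also express, made up 83.3% of it in Cb-N and 49.7% in F/M-N. Without *Sparc*, a step chosen after the data were seen, the sum was 156, 156 and 164 CPM in Cb-N, 372, 378 and 387 in Cb-T, 462, 454 and 470 in F/M-N and 565, 569 and 571 in F/M-T.

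*Trem2* and *Tyrobp* exceeded this sum in their rise. *Trem2* per unit of the full sum was 0.0035, 0.00365 and 0.00357 in Cb-N and 0.0155, 0.0156 and 0.0155 in Cb-T, a log2 shift of 2.12, and without *Sparc* the shift was 1.4. *Tyrobp* per unit of the sum shifted by 2.38 and, without *Sparc*, by 1.67. In F/M the shifts of *Trem2* were 0.84 and 0.80 and those of *Tyrobp* 1.10 and 1.06. Every T library lay above every N library in all of these ratios (exact permutation p = 0.1 in each), and the part of microglial markers in the members' changes was not tested beyond these ratios.

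Markers of mast cells, neutrophils and lymphocytes were summed in each library. In the cell type lists from here on, counts of calls stand beside 8.54% of all genes called higher and 2.66% lower in Cb. In F/M these shares were 2.63% and 0.858%. Mast cell and basophil genes, led by *Cpa3* in Cb-N, summed to at most 0.676 CPM in any library, and none of the 7 had counts enough to be tested. *Fcer1a* had no count in Cb and *Mcpt8* none in F/M. Neutrophil genes, led by *S100a9*, summed to 4.57, 4.5 and 4.69 CPM in Cb-N and 3.38, 3.18 and 3.61 in Cb-T, and to at most 2.13 CPM in F/M. Of 4 tested in Cb, 1 was called, *Ltf*, which passed the count filter through Cb-N alone, so that its direction, lower in T, was set by it. Genes of T and NK cells summed to 1.29, 0.963 and 1.11 CPM in Cb-N and 2.87, 2.94 and 2.69 in Cb-T, where *Zap70* and *Lck*, the only ones of 11 tested, passed the count filter through Cb-T. EdgeR called both higher, and DESeq2 called 1. In F/M *Cd4* led this sum, which was 12, 12.6 and 12.1 CPM in N and 14.4, 15.6 and 13.8 in T. *Cd4*, *Zap70* and *Lck* made up most of it, at means of 7.87, 2.01 and 1.96 CPM in F/M-N. The T cell receptor genes *Cd3e*, *Cd3d* and *Cd3g* had a mean of at most 0.156 CPM in any group of either area. The sum is therefore not a level of T cell RNA, and the cells that held the *Cd4* RNA were not tested.

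B cell genes, led by *Pax5*, summed to 2.18, 2.02 and 1.86 CPM in Cb-N and 3.21, 3.26 and 2.4 in Cb-T, and *Pax5* was the 1 of 2 tested genes called higher. In F/M their sum was 2.73, 2.79 and 3.22 CPM in N and 3.15, 3.31 and 3.47 in T. Border macrophage and monocyte genes, led by *Fn1*, summed to 82.2, 79.5 and 77.6 CPM in Cb-N and 86.7, 88.4 and 85.1 in Cb-T. Of 8 tested in Cb, *Mrc1*, *Ms4a7*, *Pf4* and *F13a1* were called higher, and in F/M *Ms4a7* was the 1 of 8. *Ms4a7* in both areas and *Pf4* in Cb passed the count filter through T. DESeq2 called 3 in Cb and 0 in F/M. Their F/M sums, 83.3, 85.0 and 84.6 CPM in N and 79.2, 88.4 and 79.6 in T, overlapped. Genes named here and not most abundant in their list were picked after their values were seen, and the part of these cells in the members' changes was not tested.

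Astrocyte genes, led by *Slc1a3* in Cb and *Slc1a2* in F/M, summed to 3940, 3940 and 3860 CPM in Cb-N and 5680, 5650 and 5620 in Cb-T, with *Aqp4* and *Gfap* called higher of 6, and *Gfap* was the 1 of 6 called in F/M. The oligodendrocyte sum, led by *Mbp*, was 4550, 4530 and 4640 CPM in Cb-N and 6020, 5960 and 6000 in Cb-T. With edgeR 0 of these 6 genes were called in Cb, where 6 had an unadjusted p under 0.05, and DESeq2 called 0. All 6 were under the FDR limit and missed the fold limit alone. Cerebellar neuron genes, led by *Car8* in Cb-N and *Cbln3* in Cb-T, summed to 7850, 7920 and 7960 CPM in Cb-N and 6850, 6780 and 6790 in Cb-T. Of these 10 genes edgeR called 0 in Cb, with 8 at an unadjusted p under 0.05, and DESeq2 called 0. These 8, all lower in T, were under the FDR limit and missed the fold limit alone. Endothelial genes, led by *Flt1*, summed to 229, 239 and 234 CPM in Cb-N and 266, 264 and 260 in Cb-T, and general neuronal genes, led by *Snap25*, to 5030, 5070 and 4970 in Cb-N and 4590, 4460 and 4490 in Cb-T. In each of the endothelial and neuronal lists edgeR and DESeq2 called 0 of 6 genes in Cb, with 5 at an unadjusted edgeR p under 0.05. The FDR limit was met by 5 in each list, all higher in T in the endothelial list and 3 lower and 2 higher in the neuronal list, and the fold limit by none. These sums separated T from N in Cb as the members did. In F/M, T and N were also separate for astrocytes (4760, 4890 and 4550 CPM in N and 5360, 5730 and 5340 in T), endothelial cells (210, 214 and 208 against 226, 229 and 216) and neurons (7150, 7210 and 7080 against 6620, 6750 and 6620). Genes of forebrain and midbrain neurons, led by *Tbr1* in F/M, summed to 424, 417 and 426 CPM in F/M-N and 376, 370 and 371 in F/M-T. EdgeR called 0 of these 10 genes in F/M, with 6 at an unadjusted p under 0.05, and DESeq2 called 0. The oligodendrocyte and cerebellar neuron sums overlapped in F/M. Of 9 cerebellar neuron genes tested there, *Barhl1* was called lower (log2 -0.80, edgeR FDR = 0.031), and DESeq2 called 0. Of 5 forebrain and midbrain neuron genes tested in Cb, *Lhx2* was called higher, from 0.107 to 1.53 CPM, and passed the filter through Cb-T alone. Both genes were picked after their values were seen. The part of the cells of these lists in the members' changes was not tested in either area.

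The kinases around the ITAM were followed next. Of 9 Src-family and Tec-family kinases, 4 rose in Cb and 3 in F/M, beside 8.54% and 2.63% of all genes tested. DESeq2 called 4 in Cb and 2 in F/M. *Fgr*, a myeloid Src-family kinase, went from 0.211 to 1.42 CPM in Cb and in F/M from 0.146 to 0.814 (log2 2.72 and 2.47, edgeR FDR = 9.6e-08 and 4e-04). *Btk*, a Tec-family kinase that acts with Plcg2, rose by 1.80 in Cb and 0.73 in F/M on the log2 scale. In F/M *Btk* lost its call at 0.50 and 0.55 without F/M-N replicate 3 and F/M-T replicate 3. *Lyn*, picked after its values were seen, measured 29.8 CPM in Cb-N and 25.7 in Cb-T, and 7.82 CPM in F/M-N and 10.6 in F/M-T, and was not called in either area, at -0.20 ± 0.06 in Cb and 0.47 ± 0.09 in F/M on the log2 scale. Its interaction of area and genotype, -0.65 ± 0.11 (edgeR FDR = 2.7e-05), was called, and without F/M-N replicate 1 it was -0.58 and under the fold limit. In this and the lists below a gene low in N could be tested only where T was high, so counts of genes that rose lean toward T. Of the genes named, *Fgr*, *Lilrb4a*, *Cd22*, *Pirb* and *Clec7a* reached the filter's level (0.441 CPM in Cb and 0.423 in F/M) in fewer than 3 N libraries of each area. So did *Btk*, *Blnk*, *Lcp2*, *Cd300lb*, *Igha* and *Igkc* in Cb and *Ighd* in F/M. Without a count filter these calls of T against N held.

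Scaffolds and exchange factors behind Syk rose in 6 of 11 tested cases in Cb and 4 of 11 in F/M, beside 8.54% and 2.63% of all genes tested. In Cb 3 of the 11, and in F/M 2, were lower in T under the FDR limit and missed the fold limit. The list had a median log2 fold change of 1.3 in Cb and 0.28 in F/M. *Blnk*, the linker that brings Btk to Plcg2, rose from 0.564 to 2.80 CPM in Cb (log2 2.32 ± 0.24, edgeR FDR = 4.4e-11) and measured 6.57 and 7.82 CPM in F/M-N and F/M-T, where it was not called. *Lcp2*, *Fyb* and *Vav1* rose by 2.00, 1.78 and 1.42 in Cb and by 0.59, 0.83 and 0.66 in F/M. The F/M call of *Lcp2* was lost at 0.57, 0.58 and 0.46 without F/M-N replicate 1, F/M-N replicate 3 and F/M-T replicate 3, and at 0.56 in a fit of all 12 libraries.

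Of 12 genes of the lipid kinase, protein kinase C and transcription branch, 4 rose in Cb, beside 8.54% of all genes tested. As many, 4 of the 12, were lower in T under the FDR limit and fell short of the fold limit. The median log2 fold change of these 12 genes in Cb was 0.28. *Pik3cg*, *Rac2*, *Pik3r5* and *Pik3ap1*, which belong to phosphoinositide 3-kinase and Rac signaling of leukocytes, had log2 fold changes of 1.84, 1.41, 1.32 and 1.16 there. In F/M the list's median was 0.046. *Pik3cg* and *Rac2* rose there by 0.61 and 0.97, beside 2.63% of all genes called higher. *Pik3cg* was at 0.57 and under the fold limit without F/M-N replicate 1 and in a fit of all 12 libraries. *Pik3ap1*, at 0.48 in F/M, was past it at 0.67 without F/M-N replicate 2. *Prkcd* fell in F/M from 88.9 to 47.5 CPM (log2 -0.87 ± 0.04, edgeR FDR = 1.5e-12), beside 0.858% of all genes called lower there. In Cb it went from 95.4 to 74.1 CPM and missed the fold limit (log2 -0.35 ± 0.03, edgeR FDR = 6.6e-12). Which cells held this RNA was not tested.

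Of 11 phosphatases and other brakes of the pathway, 4 rose in Cb and 2 in F/M, beside 8.54% and 2.63% of all genes tested. The median log2 fold change of the list was 0.05 in Cb and 0.06 in F/M. *Ptpn6*, the phosphatase that docks on ITIMs, went from 1.51 to 6.59 CPM in Cb and in F/M from 3.78 to 6.77 (log2 2.14 ± 0.16 and 0.87 ± 0.11), and *Inpp5d*, a lipid phosphatase that works with Fcgr2b, from 4.22 to 10.9 and from 14.3 to 19.3, called in Cb with 1.38. *Ptprc* rose by 1.77 in Cb and 1.01 in F/M. *Dok3*, an adaptor that dampens ITAM signals, fell in both areas, from 6.42 to 3.18 CPM in Cb and in F/M from 7.33 to 4.49 (log2 -0.999 ± 0.13 and -0.67 ± 0.11, edgeR FDR = 1.1e-08 and 0.00012), beside 2.66% of all genes called lower in Cb.

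Inhibitory receptors with an ITIM rose in 6 of 9 tested cases in Cb and 8 of 12 in F/M, where DESeq2 called 5. Among all genes tested, 8.54% and 2.63% were called higher. Of the called receptors, 4 in each area passed the count filter through T alone. *Lilrb4a* rose from 0.456 to 6.40 CPM in Cb and in F/M from 0.464 to 3.33 (log2 3.81 ± 0.20 and 2.86 ± 0.22). *Cd22* went from 0.212 to 2.44 CPM in Cb and in F/M from 0.230 to 1.55, and *Cd33* from 4.29 to 11.1 and from 10.9 to 16.6. *Pirb* rose by 2.04 and 1.13, and its F/M call was lost at 0.86 and 0.95 without F/M-N replicate 1 and F/M-T replicate 3. *Cd300a* moved in opposite directions, from 13.2 to 8.66 CPM in Cb and in F/M from 1.15 to 2.15 (log2 -0.59 ± 0.09 and 0.93 ± 0.225), and in Cb it was under the fold limit at -0.55 and -0.53 without Cb-N replicate 2 and Cb-T replicate 3. The interaction of area and genotype for *Cd300a* was -1.51 ± 0.23 (edgeR FDR = 7.7e-06), beside 1.2% of all genes called in that direction.

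Most other activating receptors that pair with Tyrobp or Fcer1g were too low to test, 5 of 16 being tested in Cb and 4 in F/M. *Clec7a*, the beta-glucan receptor, which signals through Syk by a single-tyrosine motif of its own, had the largest change of the pathway lists, from 0.333 to 14.5 CPM in Cb and in F/M from 0.190 to 6.91 (log2 5.43 ± 0.17 and 5.185 ± 0.23, edgeR FDR = 1.2e-28 and 1.7e-12). *Clec5a*, a partner of Tyrobp, rose by 1.25 and 1.04, and *Siglech*, which is also in the microglial list, by 0.90 in Cb. *Cd300lb* rose from 0.452 to 0.871 CPM in Cb, a call that was lost at 0.62 and 0.67 without Cb-N replicate 2 and Cb-T replicate 3 and with DESeq2, and its log2 fold change of 0.94 was 1.52 without Cb-N replicate 1. *Oscar*, a partner of Fcer1g, fell in F/M from 2.11 to 1.27 CPM (log2 -0.70 ± 0.20, edgeR FDR = 0.017).

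Ligands were also measured. Of 5 genes for Trem2 ligands and sheddases, *Lgals3*, *Apoe* and *Clu* rose in Cb, by 2.33, 0.97 and 0.73, and *Lgals3* rose in F/M, by 2.03. *Apoe* went from 826 to 1600 CPM in Cb and in F/M from 997 to 1390, where its log2 fold change of 0.51 was under the fold limit. Immunoglobulin genes were called higher in 3 of 4 tested cases in Cb and 1 of 5 in F/M, where DESeq2 called 0. Of all genes tested, 8.54% were called higher in Cb and 2.63% in F/M. None of the called immunoglobulin genes encodes a heavy chain of IgG. *Ighg2c* was the only such chain tested, picked after its values were seen, and it measured 2.65 CPM in F/M-N against 2.62 in F/M-T (log2 0.02, edgeR FDR = 0.95). *Ighm* rose from 3.51 to 8.65 CPM in Cb and measured 22.8 and 25.9 in F/M-N and F/M-T, while *Igha* and *Igkc* rose in Cb to 0.743 and 0.994 CPM. *Ighd*, called in F/M at 1.12, lost its call at 0.93, 0.95, 1.12 and 1.09 without F/M-N replicate 1, F/M-N replicate 2, F/M-T replicate 1 and F/M-T replicate 3. Of 12 other immunoglobulin receptors, *Trim21*, the cytosolic receptor for antibody, was the only 1 of 3 tested that was called in Cb and in F/M, with 0.59 and 0.76, and in Cb it was under the fold limit at 0.51 and 0.54 without Cb-N replicate 3 and Cb-T replicate 3 and at 0.58 with DESeq2, with RLE scaling and in a fit of all 12 libraries.

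The pattern over the 12 libraries was compared among all genes by the root mean square (RMS) difference of centered log2 CPM. *Trem2* was closest to the complement genes *C1qc*, *C1qa* and *C1qb*, at 0.124, 0.132 and 0.140, then to *Ly86* at 0.149 and *Ctss* at 0.193. *Tyrobp* was closest to *Mpeg1* at 0.153, *C4b* at 0.159, *C1qa* at 0.169, *Cd68* at 0.188 and *Cd180* at 0.212. *Fcgr1* had other neighbors, *Trim12c* at 0.166, *Tgfb1* at 0.2, *Ifitm3* at 0.206, *Irgm2* at 0.211 and *H2-K1* at 0.211. *Syk* was nearest to *Arhgap45*, *Ccdc80*, *Cfap45*, *Ptgs1* and *Xrcc3*, at 0.133 to 0.143. Among the members, *Trem2* and *Fcer1g* were the most alike pair at 0.198 and *Fcgr1* and *Fcrls* the least at 1.10.

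By position, *Fcgr2b*, *Fcgr4*, *Fcgr3* and *Fcer1g* lie within 276 kb of chromosome 1 (GRCm38, chr1:170958617-171234365), while *Fcgr1* (chr3:96282909-96293969) and *Fcrls* (chr3:87250758-87263738) lie on chromosome 3 and *Trem2* (chr17:48346401-48354147), *Tyrobp* (chr7:30413760-30417585), *Syk* (chr13:52583173-52648792) and *Plcg2* (chr8:117498291-117635142) elsewhere. *Fcgr2b* and *Fcgr3* are close relatives in sequence. Of the stretches of 50 bases in the annotated transcripts of *Fcgr3*, 9.58% also occur in *Fcgr2b*, and 6.95% of those of *Fcgr2b* occur in another gene, so part of their reads may have been divided between them or dropped in counting. The other 8 members share no such stretch with another gene. An antisense gene, *Gm38204*, covers 2.68% of the exon length of *Fcgr2b*, and the strand setting of the counting is not given in the sources used here.

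The members' promoters were searched for the letters GAGGAAG, the core of sites bound by the myeloid factor PU.1, on both strands (CTTCCTC on the other) in the 250 bases before the start of RefSeq transcripts. RefSeq (GRCm38.p6) gave promoters for 9 of the 10 members. The RefSeq starts of *Trem2* and *Fcgr1* are those of the GENCODE genes whose positions are given above, and those of the other members searched are not. The windows of *Fcgr3*, *Fcgr2b* and *Syk* lie inside the GENCODE gene, as do 214 of the 250 bases for *Fcrls*, 16 for *Fcer1g* and 6 for *Fcgr4*, and those of *Trem2*, *Fcgr1* and *Plcg2* lie outside it. The letters occur before 5 of them, *Trem2*, *Fcgr1*, *Fcgr3*, *Fcgr4* and *Fcrls*, and in 10.6% of all 32851 promoters of the same length. They are absent from these windows of *Fcgr2b*, *Fcer1g*, *Syk* and *Plcg2*, and *Tyrobp* was not searched. The windows of *Trem2* (chr17:48346151-48346400, plus strand), *Fcrls* (chr3:87263525-87263774, minus strand) and *Fcgr1* (chr3:96293970-96294219, minus strand) are shown, with the match in capitals. They belong to *Trem2* and to the receptors with the largest and the smallest change in Cb when all libraries were used.
Trem2: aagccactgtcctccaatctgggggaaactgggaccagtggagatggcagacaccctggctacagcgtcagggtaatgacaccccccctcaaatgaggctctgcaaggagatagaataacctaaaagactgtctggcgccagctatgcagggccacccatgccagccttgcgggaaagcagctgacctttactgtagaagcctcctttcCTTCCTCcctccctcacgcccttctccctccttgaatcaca
Fcrls: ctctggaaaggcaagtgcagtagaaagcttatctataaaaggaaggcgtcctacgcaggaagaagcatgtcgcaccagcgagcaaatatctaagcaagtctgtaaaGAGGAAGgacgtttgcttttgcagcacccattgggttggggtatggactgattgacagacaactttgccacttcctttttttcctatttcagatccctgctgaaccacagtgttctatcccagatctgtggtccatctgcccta
Fcgr1: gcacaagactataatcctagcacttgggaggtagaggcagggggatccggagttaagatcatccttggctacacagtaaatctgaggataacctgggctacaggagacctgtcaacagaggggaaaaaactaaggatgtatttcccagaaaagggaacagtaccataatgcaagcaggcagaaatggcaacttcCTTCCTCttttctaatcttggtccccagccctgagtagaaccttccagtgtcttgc
The match begins 41 bases before the RefSeq start of *Trem2*, 144 before that of *Fcrls*, which is within its GENCODE gene, and 56 before that of *Fcgr1*. A match of letters is not a measure of binding. *Fcgr1*, with the smallest change of the 10 in Cb, held the same letters as *Fcrls*, with the largest when all libraries were used.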

How the data were processed

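RNA-seq libraries of Cb and F/M from T and N mice, 3 per group, were analysed from the raw counts per gene that the authors deposited. Per the labels and the study's methods, the authors aligned single-end reads of stranded, poly(A)-selected libraries to mm10 (GRCm38) with STAR and counted them with featureCounts. The annotation release, the strand setting and the handling of reads with several alignments are not given in the sources used here. Reads shared by related genes may therefore be lost or divided.

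The letters in the names of the count files differ from those of the sample titles. The groups follow the titles and genotype labels, and *Tpp1* counts go with them.

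Everything else was computed from these counts in R 4.3.3 with edgeR 4.0.16 (filterByExpr, minimum count 10 and minimum total 15, TMM, glmQLFit and glmQLFTest, Benjamini-Hochberg adjustment over all genes tested). T was compared with N in fits of the 6 libraries of an area, and the interaction and the areas in 1 fit of all 12 libraries. Each FDR is from this test, and the SE is the log2 fold change divided by the square root of its F statistic. Alternatives included DESeq2 1.42.0. A level of 3 counts corresponds to 0.121 to 0.139 CPM, covering counting error only. P-values measure the spread between these libraries.

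Named genes were all 10 members, *Tpp1*, of each pathway list up to 4 called genes with the largest change in Cb and any that fell past the limits, the 5 genes nearest in pattern to *Trem2*, *Tyrobp*, *Syk* and *Fcgr1* (log2 CPM with a prior count of 2), and of each cell type list the most abundant gene. Not every gene that this rule takes is named. The members and lists were chosen with earlier results of these data known. Lengths and positions are from GENCODE (GRCm38) and promoters from RefSeq (GRCm38.p6). Microglial ratios without *Sparc* were added after seeing the data.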

Additional observations from a re-analysis of the deposited data

Results flagged for a closer look

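A difference between Cb and F/M in the change from N to T was called by edgeR's interaction test for 7 members. The log2 differences, Cb minus F/M, were 2.28 for *Fcrls*, 1.58 for *Tyrobp*, 1.57 for *Trem2*, 1.35 for *Fcer1g*, 1.08 for *Fcgr3*, 0.97 for *Fcgr2b* and 0.60 for *Syk*, the last of which was not called, at 0.47 to 0.58, when any of 5 libraries was left out (F/M-N 1, F/M-T 1, Cb-N 2, Cb-T 1 and Cb-T 3, by group and replicate), and at 0.58 with DESeq2 and with RLE scaling.

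The same test called some of the genes named from the pathway lists. Larger rises in Cb were found for *Blnk* (2.06), *Pik3r5* (1.46), *Lcp2* (1.43), *Ptpn6* (1.29), *Pik3cg* (1.255), *Ighm* (1.12), *Btk* (1.09), *Fyb* (0.97), *Lilrb4a* (0.97), *Inpp5d* (0.93), *Ptprc* (0.78), *Vav1* (0.78), *Cd33* (0.76), *Pik3ap1* (0.70) and *Siglech* (0.61). *Oscar*, which was called lower in F/M and not called in Cb, had a difference of 0.79. Negative differences were found for *Lyn* (-0.65), which was not called in either area by itself, for *Cd300a* (-1.51), with opposite directions in the areas, and for *Cd300lb* (-3.01), which was too low to test in F/M by itself. The F/M-N libraries held 1 count of *Cd300lb* in all and F/M-T 21, a ratio per depth of 20.6 with an exact 95% interval of 3.31 to 850 from counting error, so the size of its difference is not determined. Without F/M-N 2 it was -4.90. Some of these calls were lost without a single library, given here by group and replicate. *Btk* lost its call without F/M-N 1 (0.94), Cb-N 2 (0.89), Cb-T 2 (0.92). *Lilrb4a* lost its call without F/M-N 1 (0.95), F/M-N 3 (0.90), F/M-T 2 (0.88), Cb-N 1 (0.88), Cb-N 3 (0.99), Cb-T 1 (0.85), Cb-T 2 (0.93). *Cd300lb* lost its call without F/M-N 1 (-2.56), F/M-N 3 (-2.54), F/M-T 3 (-2.66), Cb-N 1 (-2.42). *Pik3ap1* lost its call without F/M-N 2 (0.51), Cb-N 2 (0.67), Cb-T 1 (0.61). *Oscar* lost its call without F/M-N 2 (0.71), F/M-N 3 (0.77), F/M-T 1 (0.77), F/M-T 2 (0.70), Cb-N 1 (0.68), Cb-N 3 (0.79), Cb-T 1 (0.59), Cb-T 3 (0.63). *Siglech* lost its call without F/M-N 3 (0.58), Cb-T 3 (0.52). *Lyn* lost its call without F/M-N 1 (-0.58). DESeq2 did not call *Lilrb4a* (0.95), *Pik3ap1* (0.68) or *Oscar* (0.77) and gave no adjusted p for *Cd300lb*. *Lilrb4a* was not called without a count filter (0.99), nor were *Lilrb4a*, *Cd300lb* and *Oscar* at an FDR below 0.05.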

How the results depend on the processing

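Under DESeq2, RLE scaling, no count filter, FDR below 0.05 and, for T against N, a fit of all 12 libraries, 10 members were called in Cb, 7 to 8 in F/M, 6 to 8 in the interaction, 8 between areas in N and 1 in T. Without a fold limit 9 were called in F/M, 8 in the interaction and 4 in place of 1 between areas in T, since *Fcgr3*, *Tyrobp* and *Plcg2* pass the FDR alone. Among all genes, that setting called 4541 of 16665 in F/M, 4816 of 17482 in the interaction and 13336 of 17482 between areas in T. Leaving out each library in turn gave 9 to 10 members in Cb, 8 in F/M, 6 to 8 in the interaction, 8 in N and 1 in T, and 15 to 17 separated ratios in place of 15. Of 798 values of members under alternatives, 10 lost a call, 9 gained one and 7 turned sign. Values that turned sign were uncalled and did so only without a single library. Their ranges over left-out libraries were -0.066 to 1.19 for the interaction of *Fcgr4* and, between areas in T, -0.132 to 0.0019 for *Trem2*, -0.197 to 0.047 for *Fcgr4*, -0.050 to 0.0077 for *Fcrls* and -0.076 to 0.033 for *Fcer1g*. Those of genes outside the members were -0.078 to 0.294 for *Oscar* in Cb and, in the interaction, -0.013 to 0.077 for *Tpp1*, -0.185 to 0.675 for *Fgr*, -0.054 to 0.605 for *Clec7a*, -0.093 to 0.741 for *Igha* and -0.143 to 0.525 for *Lgals3*. The log2 shifts of ratios in F/M ranged from -0.145 to 0.070 for *Fcgr1* to *Fcer1g* and from -0.0081 to 0.319 for *Plcg2* to *Syk*. The cause was not tested. Same-numbered replicates were not treated as paired, as correlations of their deviations lay between -0.0157 and 0.0616. These correlations cannot show which Cb and F/M libraries share a mouse, and other matchings were not examined. The main interaction and area tests used no pairing by mouse. With a replicate block, 10 members were called in Cb, 8 in F/M, 7 in the interaction, 8 in N and 1 in T. Depth limits *Fcgr4*, whose N libraries held 1 to 4 counts.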
